A study of Mus musculus with 9 samples.

Results

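The claudins and occludin are the membrane proteins of the tight junction. The 8 genes described here (Cldn1, Cldn3, Cldn4, Cldn6, Cldn7, Cldn8, Cldn12 and Ocln) were taken by name from the gene count tables, and all 8 of them were found among 23366 gene entries. The tables cover 6 libraries of mSGc, an epithelial line from the submandibular glands of 12-week-old male C57BL/6 mice that became immortal in culture without an introduced gene, and 3 replicate libraries of IMOK, immortalised mouse oral keratinocytes of the C57BL/6 strain grown in IMOK media. The mSGc libraries came from cells at P2, P4, P10 and P25 in progenitor medium and at P10 and P25 in differentiating medium, with 1 library for each condition, so that no condition of mSGc had a replicate. The labels name the passage of the IMOK cells only as early, while the study's text gives it as equal to that of the mid-passage mSGc. They name no allele or drug treatment for either line. Both are single lines, so a difference between them is a difference between these cultures, and cell line, medium and experiment cannot be told apart. Nothing states that the IMOK replicates were separate cultures, and p-values then measure only the spread between these libraries.

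Tight junctions seal the space between neighbouring epithelial cells near their apical side. Claudins join across the gap in rows, and the mixture of claudins that a cell makes sets which ions and how much water can pass. In salivary glands this seal separates saliva from tissue fluid. Occludin is a membrane protein of the same rows, and scaffold proteins such as ZO-1 tie both to the actin cytoskeleton.

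Library totals ranged from 6237884 to 18444963 counts. All 6 markers of the epithelial list (Epcam, Cdh1, Krt5, Krt14, Trp63 and Sfn) reached at least 1 TPM (a transcript level, reads per kilobase of gene scaled to the same sum in each library) in all 9 libraries, as the labelled cell type has them. No marker of the fibroblast, endothelial, leukocyte or pluripotent cell lists did so in all 9. Within the epithelial list, Krt5, Krt14 and Trp63 are markers of basal and myoepithelial cells according to the study's text. The P2 library had a summed fibroblast marker level of 23.1 TPM, against 0.320 to 4.48 TPM in the other mSGc libraries and 1.34 to 6.71 TPM in IMOK. Summed endothelial markers were at most 1.04 TPM and leukocyte markers at most 0.263 TPM. The number of genes called between P10 mSGc and IMOK depended on IMOK replicate 1: without it, the number was 3416 in place of 547. In the comparison of all mSGc with IMOK the number was 1918 both with and without that replicate.

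In IMOK, Cldn4 and Cldn6 were the most abundant of the 8 mRNAs, and Cldn6 was not detected in P10 mSGc. Cldn6, a claudin best known from embryonic epithelia, was at 499.6, 461 and 578 TPM in the IMOK replicates. In mSGc it was at 64.7 TPM at P2, 5.10 TPM at P4 and 0 TPM at P10 in both media. At P25 it was at 0.0781 TPM in progenitor medium, which was 1 count, and at 0 TPM in differentiating medium. Every IMOK library was thus above every mSGc library, and the 2 mSGc libraries with more than 1 count were the earliest passages. Against P10 mSGc the IMOK level was at least 1373-fold higher, taking a floor of 3 counts per library for the P10 libraries. Against P2 it was 7.91-fold higher (95% counting interval 7.25 to 8.65), an interval that covers counting error only.

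Cldn4, a claudin of tight epithelia, was at 807, 483 and 560.3 TPM in IMOK. In mSGc in progenitor medium it was at 824 TPM at P2, 313 TPM at P4, 137 TPM at P10 and 42.3 TPM at P25, and in differentiating medium at 661 TPM at P10 and 108 TPM at P25. The lines overlapped, and the spread within mSGc was wider than the difference between the lines. Cldn3, a close relative of Cldn4 that lies next to it in the genome and also seals epithelia, was at only 0.465, 0.918 and 0.593 TPM in IMOK. In mSGc it was at 247 TPM at P2, 60.3 TPM at P4, 17.6 TPM at P10 in both media, and 0.0931 TPM (progenitor) and 0.252 TPM (differentiating) at P25, where each library held 1 count. The mSGc libraries up to P10 were above all IMOK libraries, and both P25 libraries were below them. Cldn3 as a percentage of Cldn4 therefore went from 30.0% at P2 to 0.220% at P25 in progenitor medium, and was 0.0576% to 0.190% in IMOK.

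The promoters of these 3 claudins are shown because their mRNAs had the highest levels or the widest ranges and because each holds the letters CAGGTG, the E-box to which the epithelial repressors of the Snail and ZEB families bind. The sequences are from RefSeq, 250 bases before to 50 after the annotated start on the gene's own strand, and each matched the mm9 genome at 1 place, with CAGGTG or its reverse complement CACCTG in capitals. Cldn6 lies on the plus strand at chr17:23816082-23816381, Cldn4 on the minus strand at chr5:135422755-135423054 and Cldn3 on the plus strand at chr5:135461834-135462133.
Cldn6: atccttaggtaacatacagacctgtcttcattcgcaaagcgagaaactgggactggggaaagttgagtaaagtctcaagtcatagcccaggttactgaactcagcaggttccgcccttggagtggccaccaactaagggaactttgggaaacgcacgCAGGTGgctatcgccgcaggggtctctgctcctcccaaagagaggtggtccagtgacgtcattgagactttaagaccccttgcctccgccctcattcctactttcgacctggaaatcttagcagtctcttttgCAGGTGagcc
Cldn4: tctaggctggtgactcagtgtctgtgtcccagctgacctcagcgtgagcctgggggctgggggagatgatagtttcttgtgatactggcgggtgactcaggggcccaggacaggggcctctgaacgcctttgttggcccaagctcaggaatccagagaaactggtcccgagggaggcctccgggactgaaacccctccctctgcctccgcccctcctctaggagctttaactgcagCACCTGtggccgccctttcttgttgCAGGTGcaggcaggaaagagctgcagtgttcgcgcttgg
Cldn3: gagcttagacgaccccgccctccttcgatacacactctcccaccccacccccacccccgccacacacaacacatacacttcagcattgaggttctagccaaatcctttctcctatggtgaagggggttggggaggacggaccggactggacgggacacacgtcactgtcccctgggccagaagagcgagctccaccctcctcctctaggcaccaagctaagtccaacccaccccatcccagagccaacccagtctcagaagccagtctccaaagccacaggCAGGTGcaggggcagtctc
Counted from the start site, the first base of the sites was at -93 and 41 in Cldn6, at -14 and 12 in Cldn4 and at 32 in Cldn3. RefSeq promoters were found for 7 of the 8 genes (Cldn8 was not in the table), and 4 of the 7 (also Ocln, at 8) held CAGGTG on either strand, against 20% of 27025 promoters. Only the first listed promoter of each gene was searched, while Cldn12 has 3 listed and Cldn7 and Ocln have 2 each. The GC box GGGCGG was in 5 of 7, against 35.9% of promoters. TATAAA (14.2% of promoters) and the grainyhead palindrome AACCGGTT (0.152%) were in 0 of 7, each searched on both strands. A match is a description of the letters and not of binding. Of the repressors, Snai2 was at 33.1 to 97.7 TPM over the 9 libraries, while Snai1, Zeb1 and Zeb2 were each at most 1.89 TPM, with the highest level of each in the P2 library.

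The genes lie on 5 chromosomes of the mm9 genome. Cldn3 (chr5:135462084-135463346) and Cldn4 (chr5:135420993-135422804) are each 1 exon and stand 39279 bases apart on opposite strands. Cldn12 (chr5:5505015-5514976) is on the same chromosome, far from them. Cldn1 (chr16:26356732-26371925) and Cldn8 (chr16:88561071-88563428) share chromosome 16, and Cldn6 (chr17:23816332-23819414), Cldn7 (chr11:69778281-69781388) and Ocln (chr13:101267322-101322453) are alone on theirs.

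Cldn7, which sits along the lateral membrane and binds Epcam, was at 212, 189.6 and 171 TPM in IMOK. In progenitor medium mSGc had 269.97 TPM at P2, 184 TPM at P4, 37.4 TPM at P10 and 36.3 TPM at P25, and in differentiating medium 166 TPM at P10 and 221 TPM at P25. The low libraries were those of P10 and P25 in progenitor medium, and the other 4 lay near or within the IMOK range. Occludin (Ocln) was at 30.7, 33.2 and 32.9 TPM in IMOK. In progenitor medium it was at 38.2, 17.5, 21.2 and 4.86 TPM at P2, P4, P10 and P25, and in differentiating medium at 51.5 TPM at P10 and 39.6 TPM at P25. The P2 library and both differentiating medium libraries were above all IMOK libraries, and the other 3 below.

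Cldn1, the barrier claudin of the epidermis, was at 13.03, 8.27 and 6.93 TPM in IMOK. In mSGc it was at 154, 60.1, 41.1 and 4.50 TPM at P2, P4, P10 and P25 in progenitor medium, and at 33.1 TPM (P10) and 4.42 TPM (P25) in differentiating medium. All libraries up to P10 were above IMOK and both P25 libraries below. Cldn8, known from the kidney collecting duct, had 0, 1 and 1 counts in the IMOK libraries (at most 0.0529 TPM). In progenitor medium mSGc had 4.41, 6.56, 5.81 and 0.948 TPM at P2, P4, P10 and P25, and in differentiating medium 21.4 TPM (P10) and 2.43 TPM (P25). Every mSGc library was above every IMOK library. Cldn12, a claudin that lacks the usual tail for binding scaffold proteins, varied least. It was at 60.5, 57.7 and 69.2 TPM in IMOK, at 33.6, 27.5, 28.3 and 21.7 TPM at P2, P4, P10 and P25 in progenitor medium, and at 26.5 TPM (P10) and 16.4 TPM (P25) in differentiating medium. Every IMOK library was above every mSGc library.

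**Figure D1:**
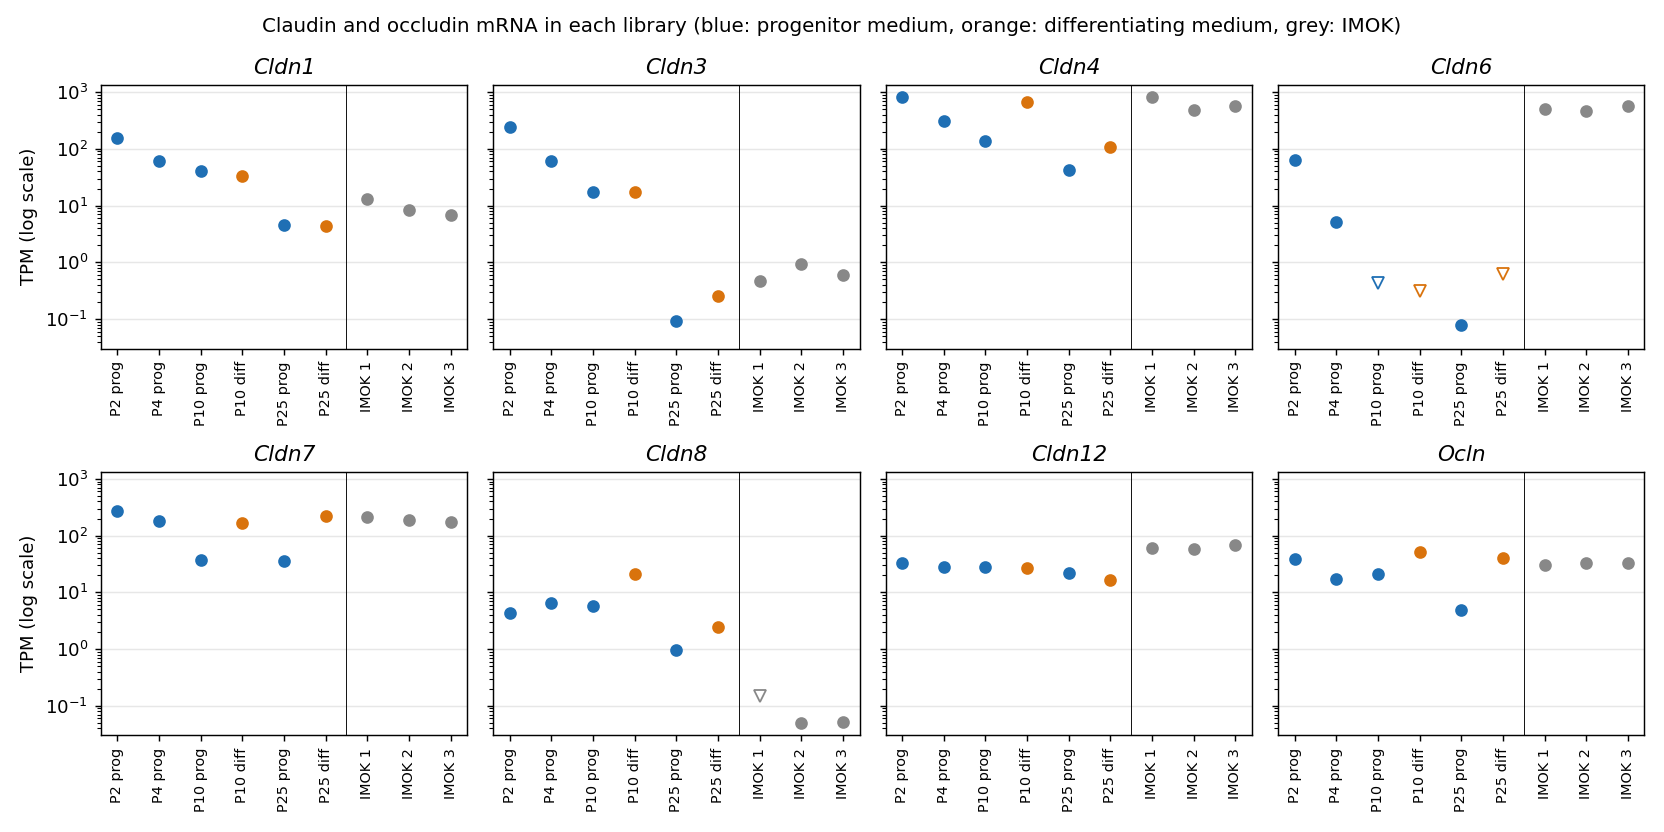
TPM (log axis) of the 8 genes in each library, with blue for mSGc in progenitor medium, orange for mSGc in differentiating medium and grey for IMOK; open triangles stand at the level of 3 counts for libraries with 0 counts. Cldn6 is near 500 TPM in IMOK (461 to 578) and at 0 to 1 counts in mSGc from P10 on, and Cldn8 shows the opposite order.

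By level per length, IMOK had the order Cldn4 (617 ± 169 TPM, SD, n = 3), Cldn6 (513 ± 59.6), Cldn7 (191 ± 20.5), Cldn12 (62.5 ± 6.00), Ocln (32.3 ± 1.35), Cldn1 (9.41 ± 3.21), Cldn3 (0.658 ± 0.234) and Cldn8 (0.0340 ± 0.0295). Only the first neighbours in this order, Cldn4 and Cldn6, overlapped between replicates. In mSGc the order changed with the condition: Cldn4 was first in 5 of 6 libraries, and Cldn7 was first at P25 in differentiating medium. The second was Cldn1 at P10 in progenitor medium, Cldn4 at P25 in differentiating medium, and Cldn7 in the other 4.

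To place the members in the whole family, each claudin was taken as a share of the summed TPM of all 25 Cldn rows in a library. Of the 18 rows that are not members, 13 stayed below 1 TPM in all but at most 1 library. The row named Cldn25, which RefSeq gives as an older name of the claudin domain gene Cldnd1, was at 62.9 to 118 TPM in mSGc and 68.2 to 78.0 TPM in IMOK, so shares depend on whether it is counted. In IMOK, Cldn4 took 38.0 ± 4.39% and Cldn6 32.5 ± 5.59% of the sum (SD, n = 3), with 11.1% to 13.6% for Cldn7. Cldn2, which forms cation channels, took 3.93% to 10.1% in IMOK and at most 0.595% in mSGc. In mSGc, Cldn4 took 23.7% to 62.5% and Cldn7 9.83% to 50.6%, while Cldn6 was at most 3.86%. Cldn3 and Cldn1 together made up the largest remaining part at P2 (14.7% and 9.21%) and little at P25 in differentiating medium (0.0576% and 1.01%). At P10 and P25 in progenitor medium the Cldn25 row took 28.8% and 39.6%, Cldn1 (10.8%) exceeded Cldn7 (9.83%) at P10, and Cldn12 took 12.1% at P25.

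**Figure D2:**
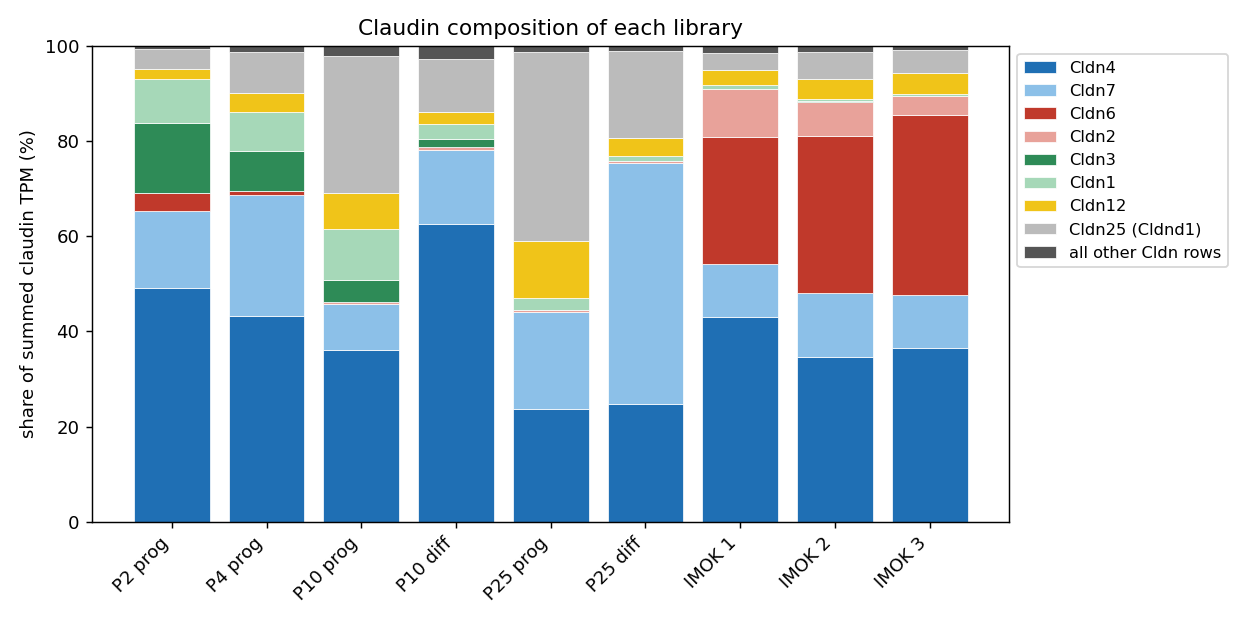
Share (%) of the summed TPM of all 25 Cldn rows held by each claudin in each of the 9 libraries (stacked bars that add to 100%). Cldn6 holds 26.6% to 37.7% in IMOK and at most 3.86% in mSGc, and the Cldn25 row (Cldnd1) rises to 39.6% at P25 in progenitor medium, where the sum is lowest.

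The sum itself differed by condition. Over all 25 rows it was 1677, 723, 381 and 179 TPM at P2, P4, P10 and P25 in progenitor medium, 1057 and 437 TPM at P10 and P25 in differentiating medium, and 1877, 1398 and 1532 TPM in IMOK. Without the Cldn25 row, a choice made after the values were seen, claudin mRNA added up to 1606 TPM at P2, 659.9 TPM at P4, 271 TPM at P10 and 108 TPM at P25 in progenitor medium. In differentiating medium it was 939 TPM at P10 and 357 TPM at P25, and in IMOK 1809, 1320 and 1461 TPM. Only the P2 library of mSGc fell within the IMOK range. The share of Cldn7 at P25 in differentiating medium was 62.0% without the Cldn25 row. In bulk RNA, fewer cells that express a gene and less mRNA per cell cannot be told apart.

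The first question was how the lines differ at the middle passage. Of the 13018 genes tested between P10 mSGc (2 libraries) and IMOK (3), 4.2% were called at a Benjamini-Hochberg adjusted p below 0.05 in edgeR's quasi-likelihood test. The 2 P10 libraries, 1 of each medium, were taken as 1 group, so that the SE holds the difference between the media. Adjusted p-values below are from edgeR except where DESeq2 is named. Of the 8 members 4 were called, 3 higher in mSGc (2.34% of all genes) and 1 lower (1.87%). Cldn1 was higher in mSGc by 2.18 on the log2 scale (SE 0.29, adjusted p = 0.0254) and Cldn3 by 4.87 (SE 0.55, adjusted p = 0.0170). Cldn8 was also higher in mSGc (adjusted p = 0.0196), with a ratio of pooled levels of 439.8 (95% counting interval 121 to 3645) that rests on 2 IMOK counts. Cldn6 was lower (adjusted p = 0.00621), with the bound given above. Cldn3, Cldn6 and Cldn8 passed the expression filter only through the line in which they were high. Their calls are therefore not separate support for a difference. With at least 10 counts in every library these genes were not tested, and Cldn1 was the 1 member called (adjusted p = 0.0388).

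The other 4 did not pass. The log2 difference, mSGc minus IMOK, was -1.02 (SE 0.23, adjusted p = 0.0667) for Cldn12, -0.48 (SE 0.61, adjusted p = 0.667) for Cldn4, -0.77 (SE 0.55, adjusted p = 0.430) for Cldn7 and 0.31 (SE 0.36, adjusted p = 0.644) for Ocln. DESeq2, which called 2231 of the 13018 genes, called 5 members, Cldn12 among them (-1.05, adjusted p = 0.00145). Libraries of the lines did not overlap for 3 members that were lower in mSGc (Cldn6, Cldn7, Cldn12; 28.8% of all genes tested) and 3 that were higher (Cldn1, Cldn3, Cldn8; 16.3%). The median log2 difference was -0.09 over the members and -0.01 over all genes. The calls rest on few libraries, for the members as for all genes. Without either P10 library 0 members and 0 genes were called by edgeR, with 2343 and 2163 genes at an unadjusted p below 0.05. Without IMOK replicate 2 or 3 Cldn6 was the 1 member called, among 36 and 69 genes. Without IMOK replicate 1, 5 members were called, Cldn12 among them (-1.11, adjusted p = 0.0182), and 3416 of 12602 genes. Over these omissions the log2 difference stayed between 1.92 and 2.40 for Cldn1 and between 4.62 and 5.17 for Cldn3. For Cldn7 it was -2.10 without the differentiating library and -0.12 without the progenitor one.

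With all 6 mSGc libraries against IMOK, 14.9% of 12885 genes were called, and 3 of the 8 members, 1 of them higher in mSGc (6.58% of all genes) and 2 lower (8.3%). Here 6 conditions were taken as 1 group, so that the SE also holds passage and medium. Cldn8 was higher in mSGc (log2 difference 7.49, SE 1.26, adjusted p = 0.00431), again on 2 IMOK counts. Cldn12 was lower by a log2 difference of -1.07 (SE 0.20, adjusted p = 0.00686), and Cldn6 by -5.33 (SE 1.59, adjusted p = 0.0483). Here too Cldn6 and Cldn8 passed the filter only through the line in which they were high. With at least 10 counts in every library they were not tested, and Cldn12 was the 1 member called (adjusted p = 0.00866). The call of Cldn6 was lost when any 1 library other than P2 was left out, with adjusted p up to 0.111, although every IMOK library stayed above every mSGc library. Cldn3 (6.55, SE 2.14, adjusted p = 0.0659) and Cldn1 (2.58, SE 1.02, adjusted p = 0.118) did not pass, and their mSGc libraries lay on both sides of IMOK. DESeq2, which called 2900 of the 12885 genes, called both (adjusted p = 0.00097 and 0.0416) and gave no p for Cldn6, so that 3 members were higher and 1 lower. Cldn4 (-0.67, SE 0.71, adjusted p = 0.575), Cldn7 (-0.13, SE 0.56, adjusted p = 0.903) and Ocln (-0.01, SE 0.50, adjusted p = 0.995) had differences within about 1 SE of 0. The lines did not overlap for 2 members lower in mSGc (17% of all genes) and 1 higher (5.22%).

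**Figure D3:**
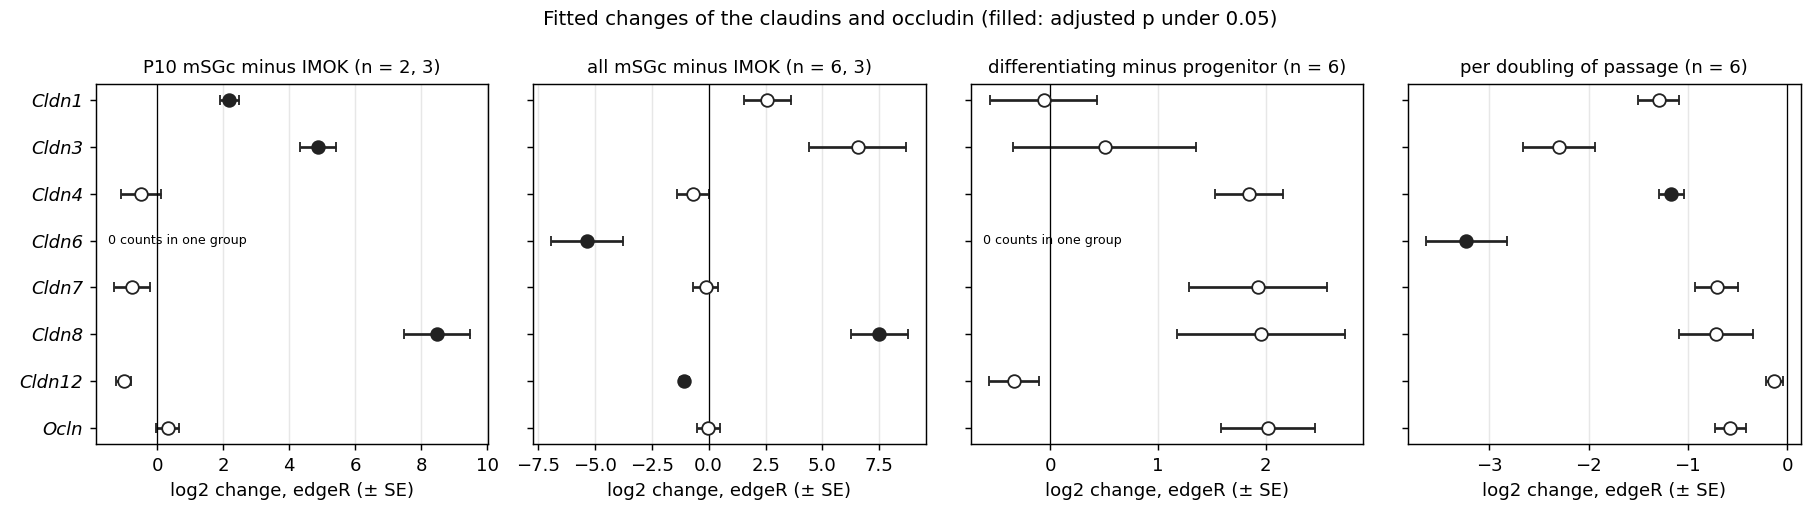
Fitted log2 change (x axis, points with bars of 1 SE) of each gene in the 4 edgeR fits, filled where the adjusted p was below 0.05. Cldn6 is left out of the P10 and medium panels, since 1 of the groups had 0 counts there, and the passage panel shows all 8 genes below 0 with increasing passage. The passage value of Cldn6 rests on its counts at P2 and P4.

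Cldn12 differed at a chromosome where many genes did. The median log2 difference of 823 chromosome 5 genes was -0.56 in the comparison of all mSGc with IMOK, against 0.03 for the rest of the genome, and it was -0.55 against 0.02 at P10. The fits of Cldn12, Cldn3 and Cldn4 sit on that background, and its part in their values was not tested. Gtpbp10, the gene 22480 bases beyond Cldn12, was also lower in mSGc (-1.42, SE 0.20, adjusted p = 0.00201), as was Abhd11, 21675 bases beyond Cldn3 (-0.85, SE 0.21, adjusted p = 0.0224).

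Of the 14 nearest genes to either side of the members that are not members themselves, 10 were tested against IMOK. At P10, 0 of the 10 were called, against 4.2% of all genes. In the comparison of all mSGc 3 were called, all lower, against 8.3% of all genes called lower. The other one was Cldn9, which ends 136 bases beyond Cldn6 on the opposite strand (-4.60, SE 0.84, adjusted p = 0.00633). It had 80, 28 and 23 counts in IMOK and at most 3 in mSGc, which was 0.329% to 1.25% of the Cldn6 count in IMOK. Whether the counting used strand is not known, so reads of Cldn9 and reads running past the end of Cldn6 cannot be told apart. On the other side of Cldn6, 1915 bases away, the cytokine receptor gene Tnfrsf12a had a log2 difference of -0.02 (SE 0.34, adjusted p = 0.980). Cldn3 shared 44 exon bases with Wbscr25, a gene on the opposite strand with at most 14 counts in any library. Next to Ocln lies Marveld2, which encodes tricellulin, the relative of occludin at the corners between cells, with a log2 difference of 0.40 (SE 0.36, adjusted p = 0.493).

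Within mSGc, levels were compared between media with passage in the fit. Of 12451 genes, 3 were called (0.0241%), and 0 of the 8 members. At an unadjusted p below 0.05, 4 members were higher in differentiating medium, namely Cldn4, Cldn7, Cldn8 and Ocln, against 5.05% of all genes. Cldn4 had a log2 difference, differentiating minus progenitor, of 1.85 (SE 0.31, adjusted p = 0.134), Cldn7 of 1.93 (SE 0.64, adjusted p = 0.447), Cldn8 of 1.96 (SE 0.78, adjusted p = 0.574) and Ocln of 2.02 (SE 0.44, adjusted p = 0.198). DESeq2, which called 271 of the 12451 genes, called 3 of these, Cldn4 (adjusted p = 7.22e-05), Cldn7 (adjusted p = 0.0447) and Ocln (adjusted p = 0.00159). The fit of P10 and P25 alone, with passage as a block, called 123 of 11938 genes and Cldn7 among the members (2.23, SE 0.23, adjusted p = 0.0115). Without the P10 differentiating library the difference of Cldn8 was 0.15.

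Side by side at the same passage, the ratio of differentiating to progenitor medium for Cldn4 was 4.82 at P10 (95% counting interval 4.53 to 5.13) and 2.55 at P25 (2.28 to 2.85). For Cldn7 it was 4.43 at P10 (3.87 to 5.08) and 6.10 at P25 (5.45 to 6.84), and for Ocln 2.43 (2.14 to 2.77) and 8.14 (6.67 to 9.99). For Cldn8 it was 3.68 (2.80 to 4.90) and 2.56 (1.27 to 5.16), the latter from 19 and 18 counts. These 4 members were at least 2-fold higher at both passages, against 3.89% of all genes tested. The ratio was 0.806 (0.722 to 0.901) and 0.982 (0.682 to 1.39) for Cldn1, 0.936 (0.835 to 1.05) and 0.757 (0.646 to 0.883) for Cldn12, and 1.00 (0.773 to 1.31) at P10 for Cldn3. Each ratio compares 2 libraries, not the media. Among the rest of the family, Cldn2 had a ratio of 5.54 (3.28 to 10.004) at P10 and 3.55 (1.77 to 7.28) at P25.

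**Figure D4:**
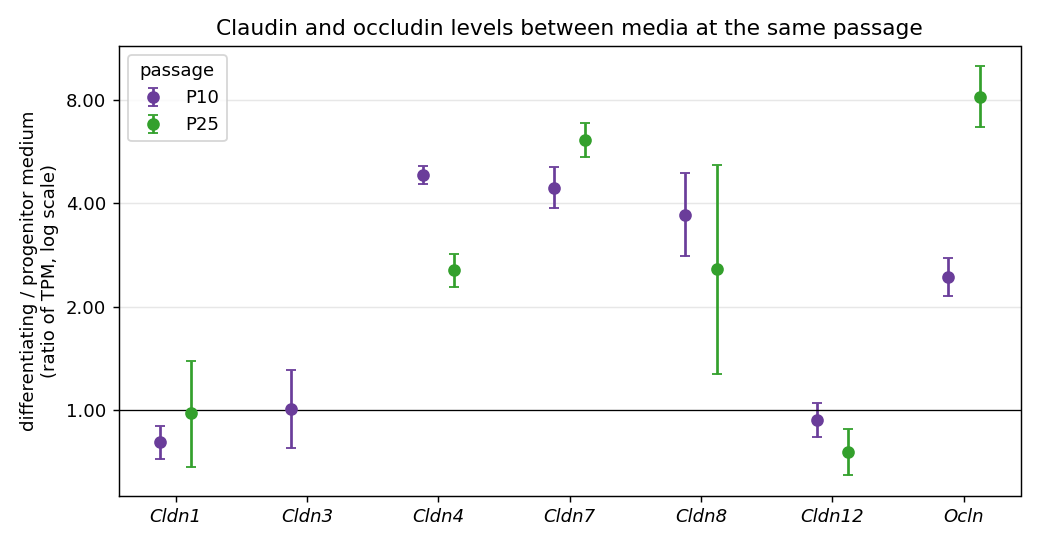
Ratio of TPM in differentiating to progenitor medium (log axis) at P10 and P25, with bars for the 95% counting interval; Cldn6 and the P25 ratio of Cldn3 are not drawn because they rest on 0 or 1 counts. Cldn4, Cldn7, Cldn8 and Ocln lie above 2 at both passages, and Cldn1, Cldn3 and Cldn12 near or below 1.

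Among other epithelial markers, 4 luminal and 4 squamous ones were tested for medium, and 0 were called by edgeR. At an unadjusted p below 0.05, 3 and 2 of them were higher in differentiating medium, against 5.05% of all genes. The summed level of the luminal keratins Krt7, Krt8, Krt18 and Krt19 was 1800.1 TPM in progenitor and 10562 TPM in differentiating medium at P10, and 1786 and 6579 TPM at P25. It was 13036 TPM at P2, 6348 TPM at P4 and 1755 to 3591 TPM in IMOK. The summed squamous list (Krt1, Krt10, Krt4, Krt13, Ivl, Lor) was 42.4 and 282 TPM at P10 and 37.7 and 200.2 TPM at P25. In differentiating medium that sum was mainly Krt4 and Krt13. Ivl went from 3.96 TPM in progenitor to 7.56 TPM in differentiating medium at P10, and the other way at P25, from 18.96 to 6.79 TPM. The part of these markers in the claudin values was not tested.

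Across passages, with medium in the fit, all 8 members had a negative log2 change per doubling of the passage number, against 49.2% of all genes. Of all genes tested 0.49% were called and 0.442% were called as falling, and 2 members were called, Cldn4 and Cldn6, both falling. Cldn4 fell by a log2 change of -1.17 per doubling (SE 0.13, adjusted p = 0.0332). The fitted value of Cldn6 was -3.23 (SE 0.41, adjusted p = 0.0464). Cldn6 had 516 counts at P2, 69 at P4 and at most 1 in each later mSGc library. It entered the fit only through P2 and P4, so its value and call do not measure a slope over the passages. The counts of members and the members' median given here include Cldn6 and are to be read with that limit. Cldn3 (-2.30, SE 0.37, adjusted p = 0.0560) and Cldn1 (-1.29, SE 0.21, adjusted p = 0.0580) came close to the threshold. The values were -0.71 (SE 0.22, adjusted p = 0.235) for Cldn7, -0.57 (SE 0.16, adjusted p = 0.191) for Ocln, -0.72 (SE 0.37, adjusted p = 0.469) for Cldn8 and -0.13 (SE 0.08, adjusted p = 0.566) for Cldn12. At an unadjusted p below 0.05, 6 members were falling, against 9.09% of all genes. The median change was -0.94 over the members and 0.00 over all genes.

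In progenitor medium, P25 was the lowest of the 4 libraries for 7 members (39% of all genes) and P2 the highest for 7 (37.3%). The exceptions were Cldn6, which was lowest at P10, and Cldn8, which was highest at P4. From P2 to P25 the level dropped 34.3-fold for Cldn1, 19.5-fold for Cldn4, 7.86-fold for Ocln, 7.44-fold for Cldn7, 4.65-fold for Cldn8 and 1.55-fold for Cldn12. For Cldn3 the ratio of P2 to P25 was 2655 (95% counting interval 476 to 104928), on 1 count at P25. Cldn6 was at least 149-fold higher at P2 than at P10. The steps differed between genes: from P10 to P25 Cldn7 changed 1.03-fold and Cldn1 9.12-fold, while from P4 to P10 these were 4.92-fold and 1.46-fold.

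The passage calls depended on single libraries, as they did over the whole table. Without P2, P4 or P25 in progenitor medium 0 members were called, where over all genes 0, 2 and 0 were, and Cldn6 was not tested without P2 or P4. Without P10 in progenitor medium 5 members were called, and 329 of 12455 genes. Without P25 in differentiating medium 1 member (Cldn4) and 31 of 13236 genes were called. The log2 change of Cldn4 stayed between -1.25 and -1.08 per doubling over these omissions. The P2 library is also the one with 23.1 TPM of summed fibroblast markers and 13036 TPM of luminal keratins. Its part in the passage values was not tested beyond leaving it out, which gave Cldn4 a log2 change of -1.22 (adjusted p = 0.315) per doubling. DESeq2 called 5 members and 700 of the 12451 genes across passages, and not Cldn6 (-2.52, adjusted p = 0.203).

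The rest of the tight junction was covered by a list of 52 genes, of which 50 were found by name in the tables: scaffold and plaque proteins, other junction membrane proteins, tricellular proteins, polarity proteins and upstream regulators. Cldnd1 was not found by that name, and the Cldn25 row was not counted in the list. Against IMOK 42 were tested. Among those called in the comparison of all mSGc libraries were Amot and Cxadr. Amot, a plaque protein that binds actin, was at 3.86 to 9.50 TPM in mSGc and 1.12 to 1.55 TPM in IMOK (log2 difference 2.38, SE 0.35, adjusted p = 0.00246). Cxadr, a junction adhesion protein and virus receptor, was at 30.9 to 60.9 TPM in mSGc and 84.8 to 110.5 TPM in IMOK (-0.81, SE 0.19, adjusted p = 0.0196). No library of one line overlapped the other for either of these. The same held for 5.22% of all genes with mSGc higher and for 17% with mSGc lower. At P10 only Amot was called of the 42 (2.41, SE 0.42, adjusted p = 0.0439), against 4.2% of all genes.

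Within mSGc, 0 of 43 genes of this list were called for medium or for passage by edgeR. At an unadjusted p below 0.05, 12 were higher and 2 lower in differentiating medium (5.05% and 3.12% of all genes), and 15 were falling and 1 rising with passage (9.09% and 4.14%). The median log2 difference between media was 0.50 over the list and -0.01 over all genes, and the median change per doubling of passage was -0.20 and 0.00. Marveld2, at 13.4 and 35.9 TPM at P10 and at 11.3 and 35.7 TPM at P25 in progenitor and differentiating medium, had a difference of 1.34 (SE 0.30, adjusted p = 0.211) and an order of libraries like that of Ocln. Of the grainyhead factors that act upstream of claudins in epithelia, Grhl2 was at 35.8 to 59.7 TPM over all 9 libraries. Grhl1 was at 11.4 TPM in progenitor and 36.7 TPM in differentiating medium at P10 and at 1.20 and 9.38 TPM at P25 (log2 difference 2.12, SE 0.62, adjusted p = 0.360). Grhl3 was at 14.2 and 24.4 TPM at P10 and at 4.87 and 29.6 TPM at P25 (1.49, SE 0.45, adjusted p = 0.373). Neither passed the test. Both were higher in differentiating medium at both passages, as was Grhl2 and as were 43.6% of all genes tested. Summed scaffold and plaque mRNA was 313 to 539 TPM in mSGc and 457 to 653 TPM in IMOK.

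Other claudins that reached 1 TPM in at least 2 libraries were Cldn2, Cldn9, Cldn20, Cldn23 and the Cldn25 row. Cldn2 was at 190.4, 99.9 and 60.3 TPM in IMOK and 0.308 to 6.29 TPM in mSGc, lower at P10 (-4.77, SE 0.84, adjusted p = 0.0439) and over all mSGc (-5.78, SE 0.74, adjusted p = 0.00124). Cldn23 was at 10.8 to 16.9 TPM in IMOK and 0.254 to 5.64 TPM in mSGc (-2.48, SE 0.80, adjusted p = 0.0629 over all mSGc). Cldn20 was at 0.567 to 2.46 TPM in IMOK and at most 0.965 TPM in mSGc.

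Finally, the genes with the most similar pattern over the 9 libraries were found among 12100 genes as those with the smallest root mean square difference of centred log2(TPM + 1). This is a description, and the points share line, passage and medium. For Cldn6 they were Crip1 (0.82) and Sncg (1.37), where Cldn6 itself varied by 4.004 around its mean. Crip1 was at 238 to 309 TPM in IMOK, 23.7 TPM at P2 and down to 0 TPM in mSGc. For Cldn3 they were Aldh1a3 (0.87), an enzyme of retinoic acid synthesis, and Crct1 (1.14). For Cldn1 they were Cpq (0.51) and 5730409E04Rik (0.55), for Cldn4 Gimap9 and Gm14137 (0.44 and 0.45), and for Cldn7 Fam107b and Cystm1 (0.44 and 0.56). For Cldn8 they were Ccdc141 and Chrm3 (0.46 and 0.48), the latter the muscarinic receptor that drives salivary secretion. For Ocln they were Apobec3 and Ifi204 (0.42 and 0.43). For Cldn12 they were Dcun1d4 and Cyth3 (0.16 and 0.19), both on chromosome 5 like Cldn12 itself. With a pseudocount of 0.1 in place of 1, both genes stayed for Cldn8, neither for Cldn1 and 1 of 2 for each other member.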

How the data were processed

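Raw counts of reads per gene were deposited by the authors in 2 tables, 1 for mSGc and 1 for IMOK, with the length of each gene entry. Per the labels and the submitters' processing notes, libraries were made with a TruSeq RNA kit from total RNA, and reads were aligned to mm9 with TopHat2 2.1.1 and Bowtie2 2.2.6 and counted with featureCounts 1.5.1. The annotation, strandedness and treatment of multi-mapping reads are not given in the sources used here, so close copies and overlapping genes are uncertain. TPM was computed here from the deposited counts and lengths. The labels call the media progenitor and differentiating. The study's text speaks of serum-free and serum-containing media, and since the labels do not pair these names, the labels' names are kept.

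Counts were fitted in R 4.3.3 with edgeR 4.0.16 (quasi-likelihood test, TMM, default filterByExpr, Benjamini-Hochberg adjustment over all genes tested, threshold 0.05), and SE is the absolute log2 change divided by the square root of F. P10 mSGc was compared with IMOK (2 and 3 libraries), all mSGc with IMOK (6 and 3), and medium and log2 passage number were fitted together within mSGc with 3 residual degrees of freedom. P2 and P4 had progenitor medium only. DESeq2 1.42.0, limma 3.58.1 (voom), no TMM factors, other filters and the omission of each library were alternatives. Python 3.11.15 with pandas 2.3.3, numpy 2.4.6, scipy 1.17.1 and matplotlib 3.10.9 was used for levels, exact 95% counting intervals and figures. The fits were also run on simulated counts with a common dispersion for all genes. The real mSGc conditions have no replicates, so that run is no support for the calls reported. Depth was 6237884 to 18444963 counts per library, so that 3 counts, the floor used for bounds, correspond to 0.163 to 0.481 CPM.

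The genes and lists were chosen with earlier results of these data known. Genes named are the 8 members, other Cldn rows that reach 1 TPM in at least 2 libraries, genes of the tight junction list called in all mSGc against IMOK (a further called gene is not reported here), the nearest gene on each side of a member (entries with exons at distant places left out), and for each member the 2 genes with the most similar pattern among those with at least 10 counts in 2 libraries and a mean of at least 1 TPM. Marker genes, repressors of the Snail and ZEB families, the grainyhead factors and Marveld2 as a junction gene were named after their values had been seen.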

Additional observations from a re-analysis of the deposited data

Results flagged for a closer look

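Over the 6 mSGc libraries, which are 6 conditions and not replicates, 1 library stood far from the rest for 4 of the 8 genes. The P2 library was far above the other 5 for Cldn1 (154 TPM), Cldn3 (247 TPM) and Cldn6 (64.7 TPM). The library of P10 in differentiating medium was far above the other 5 for Cldn8 (21.4 TPM). A library was marked when its Dixon ratio, the gap to the next TPM over the whole range, passed 0.625, the critical value for 6 samples. Chance alone marks about 1 in 20 such groups when the samples are alike and normally distributed, which TPM need not be. Here passage and medium also differ between the libraries.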

How the results depend on the processing

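No paired analysis was possible by replicate number, because each mSGc condition has 1 library and the groups compared share fewer than 2 replicate numbers. The media were paired by passage at P10 and P25 instead. The number of members called between P10 mSGc and IMOK (4) was 5 with DESeq2, 5 with no TMM factors, 1 with at least 10 counts in every library and 0 to 5 with 1 library left out. Over all mSGc (3) it was 4 with DESeq2, 1 with at least 10 counts in every library and 2 to 3 with 1 library left out. For medium (0) it was 3 with DESeq2, 1 in the fit of P10 and P25 alone blocked by passage, and 0 to 1 with 1 library left out. For passage (2) it was 5 with DESeq2, 1 with no TMM factors, 4 with no filter, 0 with at least 10 counts in every library, and 0 to 5 with 1 library left out. A filter on every library drops Cldn3, Cldn6 and Cldn8, and the cause of the other shifts was not tested.

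Over all genes, the count called at P10 (547) was 2231 with DESeq2, 272 with at least 10 counts in every library and 0 to 3416 with 1 library left out. Without TMM factors the median moved to -0.10 and the calls split into 198 higher and 215 lower, against 304 and 243. Over all mSGc (1918) it was 2900 with DESeq2 and 738 to 1918 with 1 library left out, and without TMM factors the split was 663 to 1373 against 848 to 1070. For medium (3) it was 271 with DESeq2, 36 with no filter, 1 with at least 10 counts in every library, 0 with voom, 123 with the passage block and 0 to 58 with 1 library left out. At an unadjusted p below 0.05 voom gave 1074 genes and edgeR 1018. For passage (61) it was 700 with DESeq2, 161 with no filter, 3 with at least 10 counts in every library, 126 with the untransformed passage number, 31 with progenitor medium only, and 0 to 329 with 1 library left out.

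Directions that turned were of values that did not pass the test, and the cause was not tested. At P10 Cldn4 was 0.19 without the progenitor library (over the omissions -1.91 to 0.19) and Ocln -0.38 without the differentiating one (-0.38 to 0.74). Over all mSGc, Cldn7 was 0.073 without P10 and 0.069 without P25 in progenitor medium (-0.34 to 0.07), and Ocln was 0.0053 with DESeq2, 0.0051 with no filter and -0.21 to 0.21 over the omissions. For medium, Cldn1 was 0.11 with voom and -0.90 to 0.49 over the omissions, and Cldn3 -2.20 to 2.004. The mean share of Cldn6 in IMOK was 26.2% with CPM in place of TPM, and that of Cldn4 in IMOK 43.8% with the 7 member claudins only.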
